A study of Arabidopsis thaliana with 4 samples.

Results

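The genes described here are 10 transcription factor genes of the ethylene response factor (ERF) family of Arabidopsis thaliana that are known to be induced by stress. They were chosen by gene name: ERF1, ORA59, ERF1A, ERF2, ERF5, ERF6, ERF13, ERF104, ERF105 and RRTF1. All 10 were found by their AGI identifiers among the 33602 IDs that every library lists. They were compared between whole seedlings of the lux-6 mutant and of the wild type Col-0, with 2 libraries of each genotype, described in the series as biological replicates. The labels give lux-6 as lux -/- in the Col-0 ecotype, without saying what kind of lesion it is. All seedlings were 10 days old, had been kept under LD conditions at 22 °C on MS medium with 3% sucrose, and were taken at zeitgeber time 12, that is 12 h after lights on. LUX is a DNA-binding component of the evening complex, a repressor of the circadian clock that acts around dusk, and the question put to the 10 genes is how their transcripts compare between the mutant and its wild type at that time.

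ERF proteins bind DNA through an AP2/ERF domain, and many of them recognise the GCC box, a motif in front of defence genes. ERF1 and ORA59 are switched on by ethylene together with jasmonate and activate defensin genes. The other genes belong to a quick general response: their messengers are known to appear soon after wounding, touch, cold, osmotic stress or contact with microbial molecules, and several of the proteins are substrates of stress-activated MAP kinases.

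Across the whole transcriptome, Col-0 replicate 2 was the library least like the rest. The Pearson correlation on log2(FPKM + 1) across 19592 genes was 0.984 between the lux-6 libraries and 0.909 between the Col-0 libraries. Col-0 replicate 1 correlated with the lux-6 libraries at 0.955 and 0.957, more closely than with Col-0 replicate 2, which correlated with both of them at 0.863. Plastid-encoded transcripts made up 0.0698% and 0.0530% of the FPKM total in lux-6, against 0.0525% and 3.09% in Col-0. FPKM count fragments per length of gene, scaled to the size of the library, so levels can be set side by side between genes. The library totals, worked back from the values, lay between 10735708 and 11198704 fragments. Of the lists of organ markers, leaf (6 genes), root (7 tested of 8, NRT2.1 listed at 0) and flower (1 tested of 4) held no gene past the test on all 4 libraries, and without Col-0 replicate 2 LHCA1 passed upwards (log2 difference 0.99, adjusted p = 0.0368). The median log2 difference was 0.29 over the leaf genes and -0.02 over the root genes. Genes whose genotypes did not overlap are called apart here. Of the leaf genes 3 were apart higher in lux-6 and 2 apart lower, and of the root genes 0 were apart higher and 2 apart lower. Over all 19592 genes tested, 5106 were apart higher and 4458 apart lower. Summed leaf markers lay at 16808 to 17770 FPKM in lux-6, against 18864 to 29403 FPKM in Col-0, root markers at 2663 to 3037 FPKM in lux-6, against 1484 to 3014 FPKM in Col-0, and flower markers at 3.08 to 3.64 FPKM in lux-6, against 2.25 to 3.15 FPKM in Col-0. RBCS1A made up most of the leaf sum in Col-0 and PYK10 most of the root sum. The smallest p in these lists belonged to LHCA1, LHCB2.1 and CA1 among leaf genes, to TIP2;3, PHT1;1 and PIN2 among root genes and to SEP3 among flower genes, with adjusted p of 0.220 to 0.785. The 6 seed and embryo markers summed to 464 and 443 FPKM in lux-6, against 54.5 and 8.55 FPKM in Col-0. All 6 were higher in both mutant libraries, and the seed storage protein genes SESA3, SESA4 and CRU2 rose past the test (6 of 6 without Col-0 replicate 2), SESA4 and CRU2 being listed at 0 in Col-0 replicate 2. The part of either feature in the ERF results was not tested, so the results are also given without Col-0 replicate 2. LUX itself (AT3G46640) had 34.8 and 35.3 FPKM in lux-6 and 57 and 73.9 FPKM in Col-0, lower in both mutant libraries. Its log2 difference on all 4 libraries was -0.87, which did not pass the test over all genes in that fit (limma adjusted p = 0.187). The log2 difference of LUX was -0.69 without Col-0 replicate 2. On all 4 libraries its partners ELF3 and ELF4 did not pass either (adjusted p = 0.835 and 0.670).

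The summed level of the 10 ERF genes was 469.9 and 466 FPKM in lux-6 replicates 1 and 2, against 182 FPKM in Col-0 replicate 1 and 51.8 FPKM in Col-0 replicate 2. For 9 of the 10 genes the genotypes did not overlap and lux-6 was the higher one, an arrangement found for 26.1% of the 19592 genes tested, and ORA59 was the exception. The median log2 difference of the 10 genes was 1.99, beside 0.05 over all genes tested. Only RRTF1 rose past the test over all genes (limma on log2(FPKM + 1), two-sided, Benjamini-Hochberg adjusted p at most 0.05), where 0.286% of genes were called higher. All 10 genes reached the mean of 1 FPKM that the test required, RRTF1 and ERF1 only through lux-6 and ORA59 only through Col-0. At an unadjusted p under 0.05 the same 9 genes were higher, against 9.18% of all genes. With 2 libraries of each genotype, an exact permutation test of any single gene cannot give a two-sided p under 0.333. In whole seedlings, more cells that use a gene and more RNA of it per cell cannot be told apart.

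**Figure D1:**
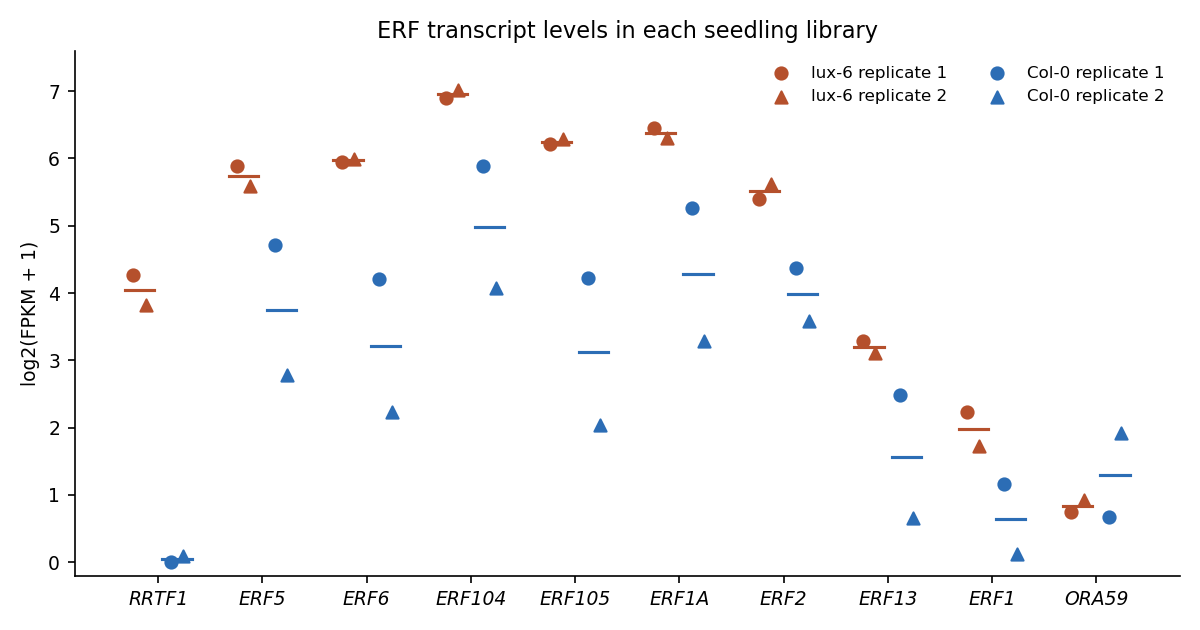
Level of each ERF transcript in every library, as log2(FPKM + 1). Points are libraries and horizontal bars are the means of the 2 libraries of a genotype. The lux-6 points lie close together and higher than either Col-0 point for every gene except ORA59. For 8 genes Col-0 replicate 2 lies below Col-0 replicate 1, as it does for 12109 of all 19592 genes tested.

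RRTF1 (AT4G34410), also called ERF109, encodes a redox-responsive factor of ERF group X that is known to be induced by wounding and jasmonate. It reached 18.3 FPKM in lux-6 replicate 1 and 13.1 FPKM in lux-6 replicate 2, against 0 in Col-0 replicate 1 and 0.0645 FPKM in Col-0 replicate 2. These values rest on 278 and 195 fragments in lux-6 and on 0 and 1 fragment in Col-0. The transcript was thus near the limit of detection in both wild-type libraries and well measured in both mutant libraries. The log2 difference was 4.0 with a standard error of 0.26 (limma adjusted p = 0.0330), on the log2(FPKM + 1) scale, which understates the change of a gene this low in Col-0. The ratio of summed fragments per library total was 484, with an exact 95% interval of 86.5 to 19164 that covers counting error only. Without Col-0 replicate 2 the log2 difference was 4.04 (adjusted p = 0.00218), and without Col-0 replicate 1 it was 3.95 (adjusted p = 0.000335). The call was lost without a filter on low values (adjusted p = 0.0865), with a pseudocount of 0.1 (0.0533), with limma-voom on fragments (0.0863) and without lux-6 replicate 1 (0.443) or lux-6 replicate 2 (0.413).

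The genome around RRTF1 holds other transcripts on the opposite strand. In the RefSeq annotation, AT4G34412 covers 301 and the long noncoding RNA AT4G08985 covers 661 of the 1385 bases of RRTF1. Whether the libraries kept strand is not stated, and how many reads of such partners were counted for RRTF1 was not tested. AT4G34412 was at 10.9 and 9.48 FPKM in lux-6 and at 13.9 and 15.2 FPKM in Col-0, lower in both mutant libraries. In these Col-0 libraries RRTF1 itself had 0 and 1 fragment. AT4G08985 was not analysed here.

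ERF5, ERF6, ERF104 and ERF105 form a closely related set within ERF group IX. Together they made up 66.0% and 67.7% of the summed FPKM of the 10 genes in lux-6, against 65.2% and 54.9% in Col-0. ERF105 (AT5G51190), which is known for a role in freezing tolerance, was at 73.1 and 76.9 FPKM in lux-6, against 17.6 and 3.11 FPKM in Col-0. Both lux-6 values were more than any Col-0 value, and the Col-0 libraries differed from each other by more than the lux-6 libraries did. Its log2 difference of 3.12 ± 0.72 (SE) was the second largest of the 10 genes and did not pass over all genes (adjusted p = 0.198). ERF6 (AT4G17490), a regulator of leaf growth under osmotic stress and a substrate of MPK3 and MPK6, was at 60.6 and 62.7 FPKM in lux-6, against 17.6 and 3.68 FPKM in Col-0. Here too the mutant pair was tight and the groups did not overlap, with a log2 difference of 2.75 ± 0.66 (SE; adjusted p = 0.211).

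ERF104 (AT5G61600), an MPK6 substrate of the response to bacterial flagellin, was the most abundant of the 10 in every library. It stood at 118 and 129 FPKM in lux-6, against 57.9 and 15.8 FPKM in Col-0. ERF5 (AT5G47230), which acts with ERF6 in growth under stress and in responses to chitin, was at 58.5 and 47.2 FPKM in lux-6, against 25.3 and 5.85 FPKM in Col-0. Neither pair of groups overlapped, and in both genes, on the log2 scale, the gap between the Col-0 libraries was wider than the gap between Col-0 replicate 1 and either lux-6 library. The log2 differences were 1.98 ± 0.60 for ERF104 and 2.0 ± 0.65 for ERF5 (SE), and neither passed (adjusted p = 0.315 and 0.341).

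ERF105 lies entirely inside another annotated gene, AT5G51180, on the opposite strand, so that all 965 bases of ERF105 are covered by it. Whether reads of the pair were kept apart by strand in this stretch is not stated. The partner was at 22.9 and 20.4 FPKM in lux-6 and at 17.0 and 17.3 FPKM in Col-0, a smaller excess in the mutant than that of ERF105. In Col-0 replicate 2, ERF105 was at 3.11 FPKM, which rests on 29 fragments, below the 17.3 FPKM of the partner. How many reads of the partner were counted for ERF105 was not tested. Apart from RRTF1 and ERF105 no member had a gene overlapping it, and none of those 8 shared a 50-base stretch of transcript with any other annotated gene. The longest run that any pair of the 10 transcripts had in common was 31 bases, between ERF6 and ERF13.

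**Figure D2:**
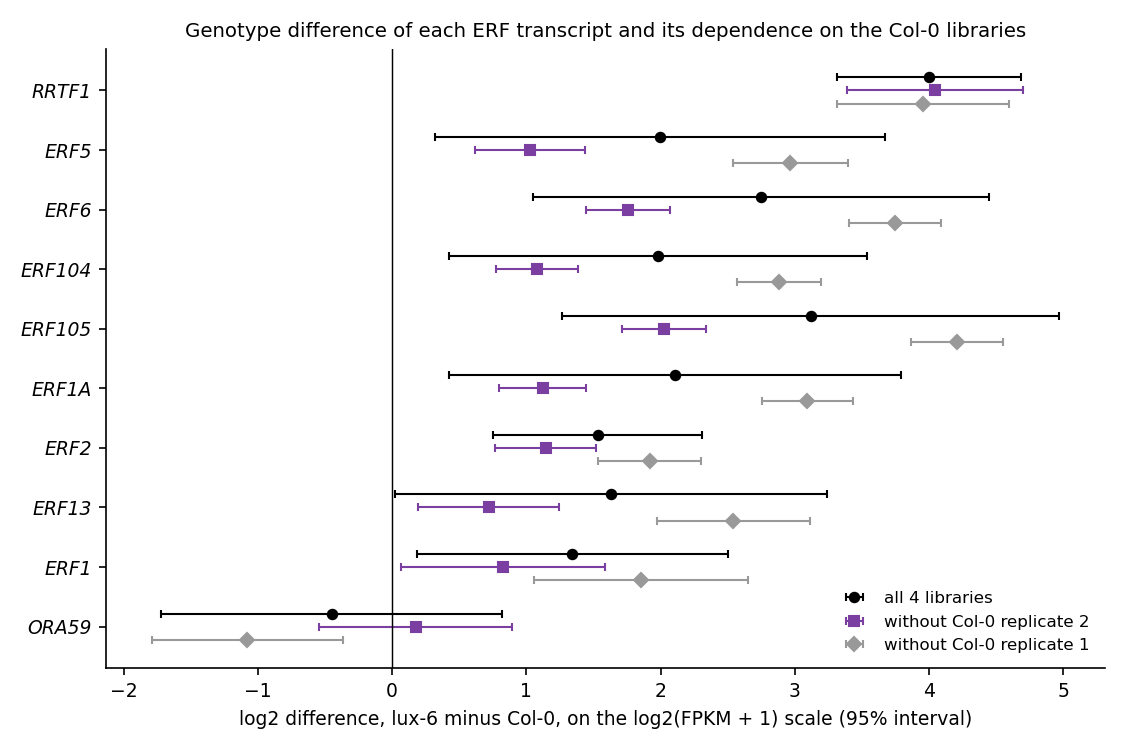
Log2 difference of each ERF transcript, lux-6 minus Col-0, on the log2(FPKM + 1) scale, with 95% intervals from limma, fitted on all 4 libraries and without either Col-0 library. Without Col-0 replicate 2 the differences of all genes but RRTF1 and ORA59 move towards 0. In the fits without a Col-0 library, the spread within genotypes comes from lux-6 only.

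ERF1A, ERF2 and ERF13 are close relatives within ERF group IX. ERF1A (AT4G17500) and ERF2 (AT5G47220) encode activators that bind the GCC box. ERF1A was at 86.9 and 78.2 FPKM in lux-6, against 37.3 and 8.79 FPKM in Col-0. ERF2 was at 41.1 and 48.2 FPKM in lux-6, against 19.6 and 11.0 FPKM in Col-0. Both were higher in each mutant library than in each wild-type library, and ERF2 had the narrowest gap between the Col-0 libraries among the genes well expressed in them. The log2 differences were 2.11 ± 0.65 for ERF1A and 1.53 ± 0.30 for ERF2 (SE), with adjusted p = 0.322 and 0.152. ERF13 (AT2G44840), another GCC-box binding factor, was at 8.80 and 7.6 FPKM in lux-6, against 4.58 and 0.575 FPKM in Col-0. The lower Col-0 value rests on 6 fragments, and the log2 difference of 1.63 ± 0.62 (SE) did not pass (adjusted p = 0.401).

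ERF1 (AT3G23240) and ORA59 (AT1G06160), the genes that join ethylene and jasmonate signals, were the least abundant of the 10 in lux-6. ERF1 was at 3.70 and 2.33 FPKM in lux-6, against 1.23 and 0.0929 FPKM in Col-0. Its Col-0 values rest on 13 and 1 fragments, and the log2 difference of 1.34 ± 0.45 (SE) did not pass (adjusted p = 0.354). ORA59 was at 0.685 and 0.900 FPKM in lux-6, against 0.585 and 2.78 FPKM in Col-0. The mutant values, which rest on 7 and 9 fragments, fell between the wild-type values, which rest on 6 and 29 fragments. Col-0 replicate 2 was the highest library, the reverse of its place for 8 other genes. Over all 19592 genes tested, 12109 were lower in Col-0 replicate 2 than in Col-0 replicate 1. The log2 difference of ORA59 was -0.45 with a 95% interval of -1.72 to 0.82 (adjusted p = 0.702), and it turned to 0.18 without Col-0 replicate 2 (adjusted p = 0.839).

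How much of the group difference rests on Col-0 replicate 2 can be read from Col-0 replicate 1 alone. Each of the 10 genes was higher in either lux-6 library than in Col-0 replicate 1, as were 33% of all genes tested. For ORA59 this rests on 7 and 9 fragments in lux-6, against 6 in Col-0 replicate 1. The ratio of the lux-6 mean to Col-0 replicate 1 was 4.25 for ERF105 and 3.51 for ERF6. It lay between 2.09 and 2.45 for ERF1, ERF1A, ERF2, ERF5 and ERF104, and was 1.79 for ERF13 and 1.36 for ORA59. Set beside these, Col-0 replicate 1 exceeded Col-0 replicate 2 by 5.68-fold for ERF105, 4.77-fold for ERF6 and 1.78-fold for ERF2. The ratio was 13.2 for ERF1 and 7.96 for ERF13, whose Col-0 replicate 2 values rest on few fragments, between 3.66 and 4.33 for ERF1A, ERF5 and ERF104, and 0.210 for ORA59. The median absolute log2 difference between the lux-6 libraries was 0.18 over the 10 genes, against 0.15 over all genes tested. Between the Col-0 libraries it was 1.82 over the 10 genes, against 0.35 over all genes tested. The gap between the wild-type libraries was thus close in size to the median genotype difference of 1.99, while the mutant libraries differed little.

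Without Col-0 replicate 2 the median log2 difference of the 10 genes was 1.10, beside -0.04 over all genes tested. In that fit 7 of the 10 passed upwards (ERF1A, ERF2, ERF5, ERF6, ERF104, ERF105 and RRTF1), where 3.47% of all genes tested did. The adjusted p was 0.00181 for ERF105, 0.00255 for ERF6 and 0.0327 for ERF5, and 0.176 for ERF13 and 0.285 for ERF1, which did not pass. The fit keeps 1 wild-type library, which is assumed to vary like the lux-6 pair, and the spread of that genotype is not measured in it. Without Col-0 replicate 1 instead, 9 of the 10 passed upwards, where 21.7% of all genes tested did. ORA59 passed downwards in that fit with a log2 difference of -1.08 (adjusted p = 0.0344), where 12.1% of all genes tested did.

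Levels were ordered alike in the mutant libraries. In lux-6 the order of levels per length was ERF104, ERF1A, ERF105 and ERF6, then ERF5 and ERF2, then RRTF1, ERF13, ERF1 and ORA59. Only ERF5 and ERF2 overlapped among these neighbours over the lux-6 libraries. In Col-0 the order by mean was ERF104, ERF1A, ERF5, ERF2, ERF6, ERF105, ERF13, ORA59, ERF1 and RRTF1, and all neighbours overlapped over the Col-0 libraries except ERF1 and RRTF1. ERF105 made up 15.6% and 16.5% of the summed FPKM in lux-6, against 9.71% and 6.0% in Col-0. ERF104 made up 25.2% and 27.6% in lux-6, against 31.9% and 30.5% in Col-0. ERF105 thus took a larger share in both mutant libraries and ERF104 a smaller share, and these shares were not tested.

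**Figure D3:**
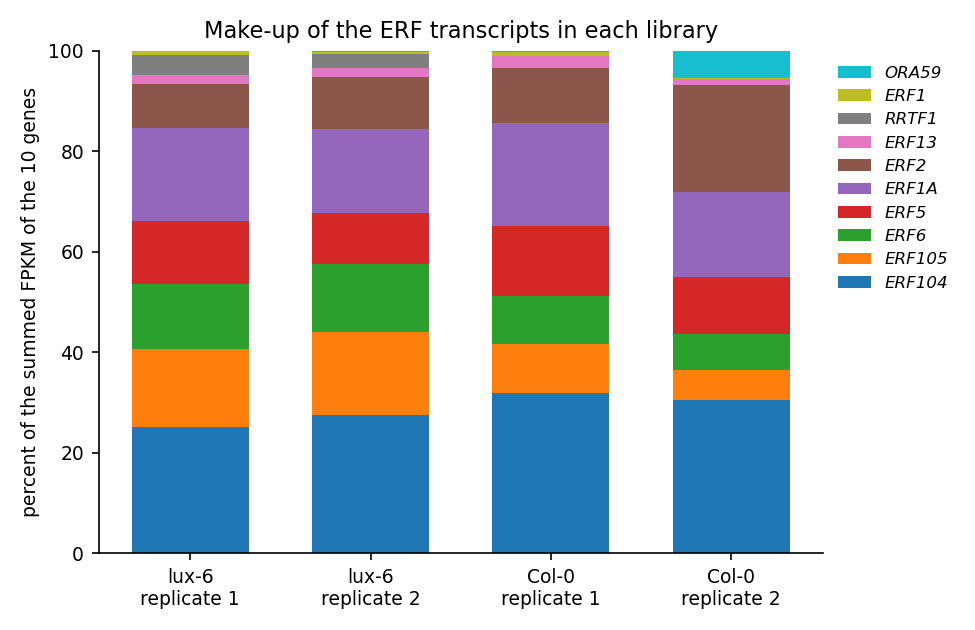
Share of each gene in the summed FPKM of the 10 ERF genes, in percent, for each library. The lux-6 bars are alike, ERF105 is wider and ERF104 narrower in them than in either Col-0 bar, and ORA59 is visible only in Col-0 replicate 2, at 5.37%.

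The 10 genes lie on all nuclear chromosomes but share some neighbourhoods. ERF6 and ERF1A are next to each other and point away from each other, and ERF2 and ERF5 point away from each other with 2 listed gene IDs between them. Each pair thus joins a gene of the ERF5 type with a gene of the ERF1A type. Within the first pair the log2 differences were 2.75 for ERF6 and 2.11 for ERF1A, and within the second 2.0 for ERF5 and 1.53 for ERF2. Whether neighbours differ in their response was not tested.

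The 250 bases in front of each annotated transcript start were searched for short motifs on both strands, using the RefSeq genome and annotation of TAIR10.1, with the submitters' processing notes naming TAIR10. The G-box CACGTG, a site of clock and jasmonate transcription factors of the bHLH type, was found in front of RRTF1, ERF1A, ERF2 and ORA59, 4 of 10 genes, and in front of 6.49% of 27443 protein-coding genes. Of these, RRTF1, ERF1A and ERF2 were higher in lux-6, while ORA59, at low fragment counts, was not. No G-box was found in front of ERF1, ERF5, ERF6, ERF13, ERF104 or ERF105, which were higher in lux-6 as well. A link between the motif and the levels was not tested. The stretches of the 4 genes with a G-box are shown. Each has 60 bases, is written 5′ to 3′ on the strand of the gene, and has the G-box in capitals.
RRTF1, chr4:16451715-16451774, plus strand: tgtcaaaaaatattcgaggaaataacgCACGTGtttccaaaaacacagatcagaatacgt
ERF1A, chr4:9759090-9759149, plus strand: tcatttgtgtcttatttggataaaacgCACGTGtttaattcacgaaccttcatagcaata
ERF2, chr5:19172963-19173022, minus strand: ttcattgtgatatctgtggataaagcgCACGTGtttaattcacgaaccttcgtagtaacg
ORA59, chr1:1882686-1882745, plus strand: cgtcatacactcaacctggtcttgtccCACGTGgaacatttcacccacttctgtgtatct
Counted from the transcript start, the G-box begins at -134 in RRTF1, -86 in ERF1A, -39 in ERF2 and -194 in ORA59. ERF1A and ERF2 share an identical run of 26 bases around it, cgCACGTGtttaattcacgaaccttc, the longest among the 45 pairs of upstream windows, where the next had 13 bases. RRTF1 and ERF1A share 13 bases around the G-box, aacgCACGTGttt.

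The motif that LUX binds, searched as GATACG or GATTCG, was found in front of ERF6 and ERF1, 2 of 10 genes, and in front of 12.1% of all genes searched. These 60-base stretches are shown with the match in capitals because LUX is the gene affected in the mutant, and a match describes letters only.
ERF6, chr4:9754285-9754344, minus strand: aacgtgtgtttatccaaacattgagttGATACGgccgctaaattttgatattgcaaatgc
ERF1, chr3:8295439-8295498, plus strand: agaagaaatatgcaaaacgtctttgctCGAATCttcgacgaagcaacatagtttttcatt
The match runs from -156 to -151 in ERF6 and from -151 to -146 in ERF1, where it is read on the other strand. A W-box, searched as TTGACC or TTGACT, stood in front of ERF2, ERF5 and ERF105 and in front of 28.4% of all genes. A GCC box, GCCGCC, stood in front of ORA59 and of 1.87% of all genes. The evening element AAATATCT and the rapid stress response element CGCGTT had no match in the 10 windows, beside 4.79% and 2.59% of all genes. ERF104 and ERF13 had no match to any of the 6 motifs.

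**Figure D4:**
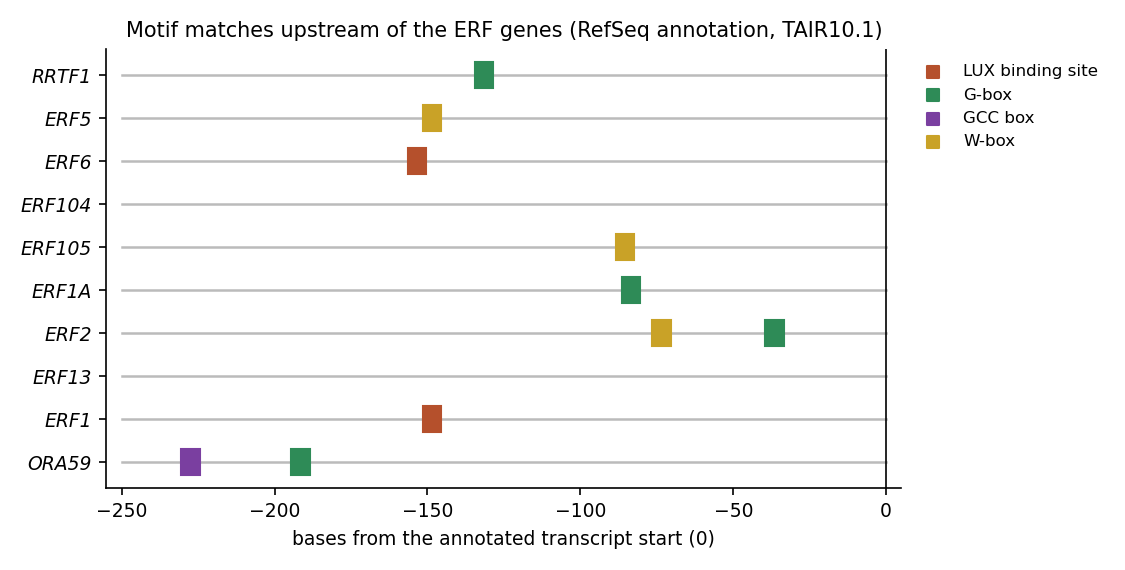
Motif matches in the 250 bases in front of each ERF gene, by distance from the annotated transcript start. G-boxes mark RRTF1, ERF1A, ERF2 and ORA59, and matches to the LUX binding site mark ERF6 and ERF1.

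Lists of related genes were set beside the 10 ERF genes in the same fit. Other genes of ERF groups IX and X had a median log2 difference of 0.43 over 6 tested of 15, and none passed. DEWAX (AT5G61590), a repressor of wax synthesis, was at 115 and 181 FPKM in lux-6, against 57.3 and 49.6 FPKM in Col-0 (log2 difference 1.42, adjusted p = 0.143). ERF15 and ERF106 had -0.76 and 0.62 (adjusted p = 0.373 and 0.377). Group VIII, whose members repress through an EAR motif, had a median of 0.76 over 7 tested of 8 and none passed. Its ERF11, which is known to counteract ERF6, was at 26.2 and 17.2 FPKM in lux-6, against 3.27 and 1.10 FPKM in Col-0 (log2 difference 2.89, adjusted p = 0.0901). ERF7 and ERF4 had 0.76 and 1.73 (adjusted p = 0.195 and 0.258). In the fit without Col-0 replicate 2 no gene of groups IX and X outside the 10 passed, and ERF11 passed (adjusted p = 0.00978).

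Genes that ERF proteins are known to act on had mixed values. Of the GCC-box defence genes, the defensin genes PDF1.2a, PDF1.2b, PDF1.2c and PDF1.3 were listed at 0 in all 4 libraries. PR4 was at 159 and 177 FPKM in lux-6, against 143 and 72.0 FPKM in Col-0, and the chitinase gene CHI-B at 27.9 and 36.4 FPKM in lux-6, against 33.6 and 12.4 FPKM in Col-0 (adjusted p = 0.489 and 0.610). Among 6 genes tied to single ERF proteins in published work, WRKY33 rose, with 207 and 156 FPKM in lux-6, against 22.6 and 16.8 FPKM in Col-0 (log2 difference 3.14, adjusted p = 0.0330). The other 5 did not pass, and the median over the 6 was 2.01. Of the 6, 4 passed upwards without Col-0 replicate 2. YUC2 and ASA1, which RRTF1 is known to bind in roots, were named after their values were seen and had -0.07 and 0.62 (adjusted p = 0.923 and 0.326).

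Upstream of the ERF genes, the ethylene pathway had a median log2 difference of 0.37 over 16 tested of 19 genes, and none passed. Among them ACS6 and ACS11 encode enzymes of ethylene synthesis. ACS6 was at 86.5 and 76.2 FPKM in lux-6, against 19.3 and 6.32 FPKM in Col-0 (log2 difference 2.76, adjusted p = 0.133), and ACS11 had 1.85 (adjusted p = 0.116). The receptor gene ERS2 had 0.61 (adjusted p = 0.399). Of 6 MAP kinase cascade genes none passed. MPK3 was at 168 and 157 FPKM in lux-6, against 46.4 and 36.7 FPKM in Col-0 (log2 difference 1.95, adjusted p = 0.0525), while MKK9 and MKK4 had 1.62 and 0.37 (adjusted p = 0.322 and 0.588). Among jasmonate repressor genes and MYC2 the median was 1.75 over 12 tested of 13 and none passed, with JAZ9, JAZ1 and JAZ7 at 2.39, 2.1 and 2.57 (adjusted p = 0.0525, 0.0658 and 0.0693). Without Col-0 replicate 2, 2 ethylene genes (ACS6 and ACS11, adjusted p = 0.00227 and 0.0343), the kinase gene MPK3 (0.00227) and 8 of the 12 jasmonate genes passed upwards.

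Another list held 21 rapid stress responders, genes of touch, wounding and pathogen signalling. Its median log2 difference was 2.53. For all but CBF3 the genotypes did not overlap and lux-6 was higher, as for 26.1% of all genes tested. In this list 4 genes rose past the test, TCH3, CML38, WRKY33 and ZAT12, where 0.286% of all genes tested did. WRKY33 is the same gene as in the list of genes tied to single ERF proteins. TCH3, a touch-induced calmodulin-like gene, was at 146 and 197 FPKM in lux-6, against 13.8 and 15.4 FPKM in Col-0 (log2 difference 3.45, adjusted p = 0.0330). CML38 and ZAT12 had 4.23 and 2.37 (adjusted p = 0.0330 and 0.0498). In the fit that leaves out Col-0 replicate 2, 15 of the 21 passed upwards. Col-0 replicate 2 was lower than Col-0 replicate 1 by a median of 0.63 on the log2 scale in this list and by 1.82 in the 10 ERF genes. The median of replicate 2 minus replicate 1 was -0.14 over all genes tested. Outside the ERF genes the lowest list medians were -1.25 for the 6 seed and embryo markers and -1.17 for the 2 GCC-box genes tested. The 8 reference genes had a median of -0.07, with SAND, UBQ10 and UBC21 at -0.34, 0.49 and 0.30, and none passed.

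**Figure D5:**
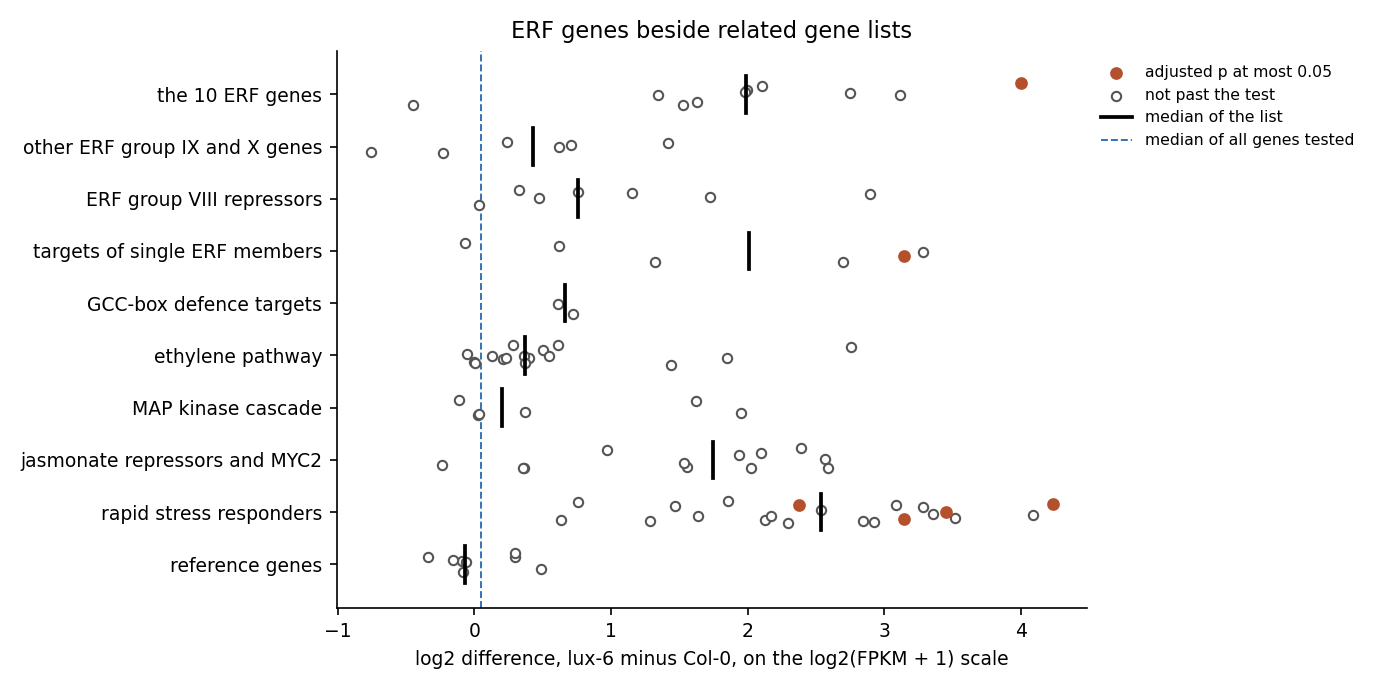
Log2 difference, lux-6 minus Col-0, of the tested genes of each list. Each point is a gene, filled where it passed the test over all genes, black bars are list medians and the dashed line is the median of all genes tested. The 10 ERF genes have a median of 1.99, the rapid stress responders 2.53 and the reference genes -0.07.

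The genes most like the ERF group were sought by Euclidean distance between centred log2(FPKM + 1) profiles over the 4 libraries, among 15372 other genes whose mean reached 5 FPKM. The nearest was SRG3 (AT3G02040), at 183 and 161 FPKM in lux-6, against 62.9 and 27.9 FPKM in Col-0, with a distance of 0.08. The next were AT4G27450, PUP14 (AT1G19770), the zinc finger gene AT5G44260 and AT1G33055, with distances of 0.12, 0.12, 0.13 and 0.13. Within the group itself ERF104 lay nearest to the mean profile, at 0.45, and RRTF1 and ORA59 farthest, at 2.22 and 3.02. Over only 4 libraries such likeness is a description.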

How the data were processed

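Each library has 1 deposited file, whose values the authors gave in FPKM per the file headers. TopHat2 2.0.12 and the build TAIR10 are named in the submitters' processing notes, with no role stated. The sources used here do not give the counter, the gene lengths, filters or strandedness. Fragments and library totals were worked back by searching gene lengths at which all 4 libraries gave whole numbers within 0.002. This succeeded for all 10 ERF genes and for 82.9% of genes above 0.

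Values were put on the scale log2(FPKM + 1) and fitted by limma 3.58.1 (R 4.3.3), using a variance trend and a single genotype term. All 19592 genes whose mean reached 1 FPKM entered. Intervals are at 95%. P-values are two-sided and Benjamini-Hochberg adjusted over all genes tested, with a threshold of 0.05. All adjusted p in the text are from limma. Residual and prior degrees of freedom were 2 and 2.88. The fit was tested on simulated data, with an outcome not reported here. Noise was drawn independently for each gene, so the simulation cannot speak to a library unlike the rest, such as Col-0 replicate 2. P-values set the genotype difference against the spread between libraries within a genotype, moderated across genes. With a Col-0 library left out, this spread comes from lux-6 only.

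RefSeq TAIR10.1 supplied gene neighbours and upstream sequence, with an entry for 97.7% of IDs. The members, lists and motifs were chosen with earlier results of these data known. The text names every member, LUX, and from each other list the genes past the test, at most 4, or else the 3 with the smallest p. It also names the 5 nearest profiles. Alternatives changed the filter, pseudocount, scaling or trend, added a replicate block, left out each library, or used limma-voom.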

Additional observations from a re-analysis of the deposited data

How the results depend on the processing

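The number of ERF genes called higher was 1 in the fit on all 4 libraries. It was 0 without a filter on low values, with a pseudocount of 0.1 and with limma-voom on fragments, and between 0 and 9 with a library left out. Over all genes, 57 were called. The count was 0 without the filter (2680 at an unadjusted p under 0.05) and with a pseudocount of 0.1 (2316), 100 with a minimum of 5 FPKM, 96 with median-of-ratios scaling, 29 without the mean-variance trend and 90 with limma-voom, and lay between 0 and 6618 with a library left out. It was 0 without lux-6 replicate 1 or 2, where 874 and 889 genes had an unadjusted p under 0.05. The causes were not tested. The median of the 10 ERF genes lay between 1.10 and 2.93 with a library left out. ORA59 lay between -1.08 and 0.18 there and turned to 0.18 without Col-0 replicate 2. The other 9 genes were higher in lux-6 under every alternative run, and a minimum of 5 FPKM left ERF1 and ORA59 untested. A replicate block gave 3 ERF genes (RRTF1, ERF6 and ERF105) and 340 genes in all. The labels tie the numbers to no shared batch, and deviations of same-numbered libraries from their genotype means correlated at -0.03 across genes. Low fragment counts limit ERF1 and ERF13 in Col-0, and ORA59 in both genotypes.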

Other observations

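Other ERF genes lie beside the 10 described and were named for their position after their values were seen. DEWAX (AT5G61590) is the listed gene next to ERF104, and its level in lux-6 and Col-0 is given above. ERF98 (AT3G23230), next to ERF1, was at 1.95 and 0.444 FPKM in lux-6, against 0.216 and 0.213 FPKM in Col-0, too low on average for the test. These values rest on 18 and 4 fragments in lux-6 and on 2 and 2 fragments in Col-0. ERF98 was higher in both mutant libraries, as were ERF1 and 26.1% of all genes tested.

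The growth regulator gene GA2OX6 (AT1G02400), which inactivates gibberellin and is a known target of ERF6, was picked out after its values were seen. It was at 8.10 and 7.03 FPKM in lux-6, against 2.71 and 2.13 FPKM in Col-0. The log2 difference was 1.33 with a standard error of 0.22, which did not pass over all genes (limma adjusted p = 0.117) and passed without Col-0 replicate 2 (1.2, adjusted p = 0.0477). MYB51 (AT1G18570), a regulator of indole glucosinolates from the same list of ERF targets, was at 50.7 and 48.7 FPKM in lux-6, against 8.78 and 5.24 FPKM in Col-0 (log2 difference 2.70, adjusted p = 0.0514). Without Col-0 replicate 2 its adjusted p was 0.00169. Both transcripts had less distance between the Col-0 libraries than ERF6 itself.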
